A study of Mus musculus with 4 samples.

Results

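The p53 target genes examined here are 36 mouse genes, Trp53 itself and 35 genes listed as p53 targets, out of 43629 gene identifiers counted. Whether p53 raises each of these genes in the cells used here was not tested. The 36 genes were taken from a list by gene symbol, with no threshold on their values, and all 36 were found and had enough counts to be tested. The cells were CD117+ hematopoietic stem and progenitor cells (HSPCs) of C57Bl/6 mice that carried Chaf1b alleles flanked by loxP sites (Chaf1b fl/fl), grown with SCF, IL-3, IL-6 and LDL. CHAF1B is a subunit of CAF-1, the chaperone that places histones H3 and H4 on newly copied DNA. Control cells received the empty retroviral vector MIGR1 (2 libraries), and Chaf1b-deleted cells, whose genotype is given as Chaf1b (-/-) and whose samples are named dChaf1b, received the same vector with Cre recombinase (2 libraries). Cells that had taken up the vector were sorted by its eGFP, and RNA was taken 48 h after transduction. The floxed alleles were therefore present in both groups, and Cre itself was present only in the deleted group, so effects of Cre and of Chaf1b loss cannot be told apart. The study used young adult mice of both sexes. The sources used here do not say whether the libraries of a group came from separate animals or cultures, so the p-values measure only the spread between these libraries, part of which may be technical.

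The transcription factor p53 is made continuously and destroyed continuously, because MDM2, itself a p53 target, marks it for degradation. DNA damage, stalled replication and other stresses stabilise the p53 protein, which then binds its sites in DNA and raises genes for cell cycle arrest, apoptosis, DNA repair, antioxidant defence and its own inhibitors. In hematopoietic progenitors, p53 is known for limiting self-renewal and for removing damaged cells. Since p53 is controlled mainly as a protein, the messenger RNA of its targets is the usual readout of its activity, although many targets also answer to other factors. The comparison asks whether these targets differed in HSPCs once Chaf1b had been deleted.

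The libraries held between 18468637 and 25409926 counts on genes. Chaf1b had 80.3 and 57.9 counts per 1000000 counts on genes (raw CPM) in the controls and 16.1 and 17.9 after deletion, 0.246 of the control mean, so the residual level was similar in both deleted libraries. Chaf1b-deleted replicate 1 stood apart from the other 3 libraries. Xist reached 336 raw CPM there and at most 1.30 elsewhere, 4 Y-linked genes summed to 0.127 raw CPM against 306 to 324, and 26 of 26 listed interferon-stimulated genes were over 2-fold above the control mean, against 0 of 26 in replicate 2. Xist marks female cells and Y-linked genes mark male ones, so the deleted libraries came from donors of different sex, and their spread includes that between animals. The progenitor markers Kit, Cd34, Myb and Mpo were present in every library (Kit 95.6 to 124 raw CPM), but so were granulocyte genes, whose 8 listed markers summed to between 45200 and 65600 raw CPM. Of the 10 listed progenitor markers, 3 lay above both controls in both deleted libraries and 1 below both (21.4% and 22.9% of all genes tested). Some markers of other cells lay above both controls in both deleted libraries, as many members did. They included 4 of the 8 neutrophil markers (Retnlg, Mmp8, Cxcr2 and Ltf, log2 fold changes 2.08, 1.69, 1.52 and 0.94), all 5 B-cell markers (summed 4.44 and 4.72 raw CPM in the controls, 10.1 and 10.6 after deletion) and the 4 stromal markers that could be tested (log2 fold changes 0.23 to 4.07, median 2.02). Also above both controls were 5 of 6 megakaryocyte, 2 of 8 monocyte or macrophage, 1 of 6 erythroid, 1 of 3 tested T or NK and 0 of 6 mast cell or basophil markers. Of all genes tested, 21.4% lay so. Of the stromal genes, Pdgfra and Cdh5 reached at most 1.46 and 1.03 raw CPM, and Col3a1 was too low to be tested. The stromal markers summed to between 219 and 274 raw CPM, and the largest value of a single gene was 267. A single gene thus made up nearly all of the sum of 274, so the sum says little about the stromal markers as a set. The part of these cells in the members' values was not tested. In bulk RNA, fewer cells of a type and less RNA per cell cannot be told apart.

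A p53 site in DNA is a pair of half-sites, each made of 3 purines, a C, 2 bases that are A or T, a G and 3 pyrimidines, with up to 13 bases between them. Within 5 kb of the 5′ end of the gene on either side, 6 of the 36 members held at least 1 full site without a mismatch (16.7%), against 477 of 15049 tested genes with a gene model (3.2%). The sites are shown because p53 binds DNA at sequences of this form, although a match alone does not make a gene a p53 target. They are given 5′ to 3′ on the strand of the gene, with the half-sites in capitals and the bases between them in lower case, from the mm9 genome (NCBIM37).
Cdkn1a site, chr17:29227851-29227882, + strand: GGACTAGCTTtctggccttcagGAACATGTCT
Trp53inp1 site, chr4:11082259-11082279, + strand: AAACATGTCCaGGACTAGCCT
Zmat3 site, chr3:32263253-32263272, - strand: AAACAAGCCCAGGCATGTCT
Ddit4 downstream site, chr10:59411250-59411269, - strand: AGACTTGCCTGGACTAGTCT
Ddit4 upstream site, chr10:59419209-59419228, - strand: AAGCATGTCCAGGCTAGCCC
Polk site, chr13:97316791-97316818, - strand: AGGCTAGCTTttgcttaaGAGCAAGTTC
Dcxr site, chr11:120583996-120584017, - strand: AGGCTAGTTCcaAGGCTAGCTC
The Cdkn1a site is centred at -57 bases from the annotated 5′ end, the Trp53inp1 site at -1308 and the Zmat3 site at 1337, inside the gene. The other 4 sites lie farther out, from -4701 bases for the upstream Ddit4 site to 4588 for the Dcxr site. Among the 6 genes with such a site, Cdkn1a, Trp53inp1 and Ddit4 had both deleted libraries above both controls, Zmat3 and Dcxr overlapped between the groups, and Polk was lower in both. Perp and Gdf15, the members with the clearest change, held no full site in this window, which says only that these letters are not there. A match of this kind is a description of the sequence, and binding of p53 was not measured here.

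Of the 36 members, 2 were called higher and 0 lower after Chaf1b deletion, by a change of at least 1.5-fold with an adjusted p-value under 0.05 in edgeR's quasi-likelihood test, fitted over 16500 genes. Over all genes tested, 0.370% were called higher and 0.00606% lower. Without adjustment, 17 members had a p under 0.05 on the higher side and 0 on the lower side, where all genes tested gave 9.15% and 3.10%. Both deleted libraries lay above both controls for 19 members (21.4% of all genes tested did so) and below both for 4 members (22.9% of all genes). A difference of at least 1.5-fold, without a test, was seen upward in 18 members (15.8% of all genes tested) and downward in 0 (8.79%). The log2 fold change was above 0 for 27 of the 36 (47.5% of all genes tested). Its median was 0.59 over the members and -0.03 over all genes tested. Scaled by the TMM factors, the 19 and 4 stayed the same in number (22.3% and 21.4% of all genes tested). The 4 lower members were then not the same genes. With that scaling the groups of Aen and Ei24 overlapped, while Apaf1 and Sesn1 lay below both controls. Of the members, only Pltp needed the deleted libraries to pass the low-count filter, as it had 6 counts in MIGR1 replicate 1. Pltp is among the 19 above both controls, the 18 at 1.5-fold and the 27 with a log2 fold change above 0. The members thus lay mostly above the controls, by differences that in 17 of the 19 cases missed the adjusted threshold. All 5 arrest genes lay above both controls, as did 6 of 12 apoptosis genes, 7 of 9 growth and metabolism genes, 1 of 5 feedback genes and 0 of 5 repair genes. The feedback and repair counts are close to the share over all genes tested (21.4%), and a difference between functions was not tested.

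**Figure D1:**
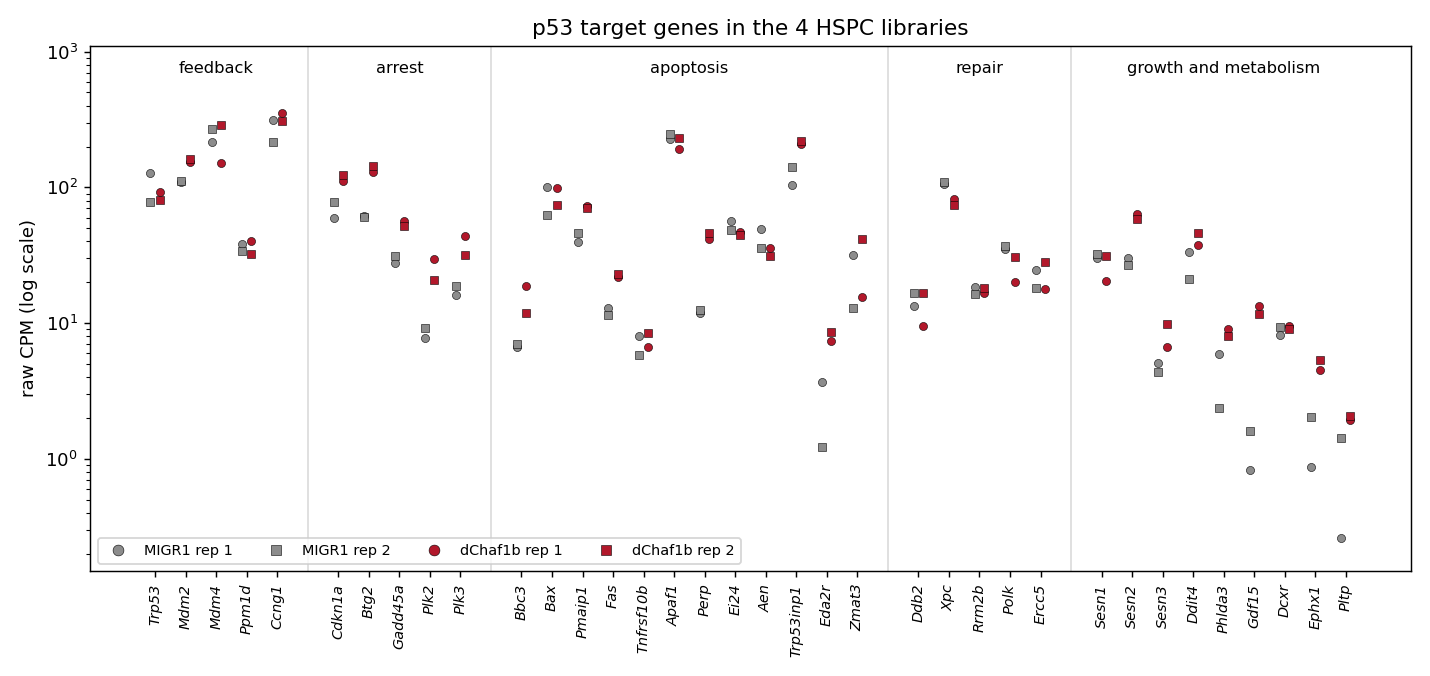
Raw CPM (log scale) of each of the 36 p53 target genes in the 2 MIGR1 control libraries (grey) and the 2 Chaf1b-deleted libraries (red), with circles for replicate 1 and squares for replicate 2, ordered by function. The red points lie above the grey ones for all 5 arrest genes and for none of the 5 repair genes, where 21.4% of all genes tested lay so.

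Gdf15 and Perp were the members called. Gdf15 (ENSMUSG00000038508, chromosome 8 from 73153292 to 73156355) encodes a secreted stress hormone of the TGF-β family. It had 19 and 41 counts in the controls, or 0.836 and 1.61 raw CPM (95% Wilson intervals 0.535 to 1.31 and 1.19 to 2.19). In the deleted libraries it had 316 and 216 counts, or 13.4 and 11.7 raw CPM (12 to 15 and 10.2 to 13.4). Gdf15 thus went from barely detected to clearly detected, with no overlap between the groups. It rose by 3.38 on the log2 scale (standard error 0.44, edgeR quasi-likelihood adjusted p = 0.0367), the largest change of any member. With any 1 library left out, this value ranged from 3.0 to 3.92 and stayed called. With DESeq2's size factors or the library size in place of TMM normalization, the adjusted p was 0.0503 and 0.0583, which ends the call.

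Perp (ENSMUSG00000019851, chromosome 10 from 18564877 to 18576879) encodes a membrane protein of cell junctions that also promotes apoptosis downstream of p53. It had 11.9 and 12.6 raw CPM in the controls and 41.7 and 46.3 after deletion. The libraries of a group were close to each other, and every deleted library was more than 3-fold above the control mean (3.42 and 3.79 times). Perp rose by 1.87 on the log2 scale (standard error 0.22, edgeR quasi-likelihood adjusted p = 0.0330), and by 1.84 to 1.91 with any 1 library left out. It was called under all 3 normalizations tried. Gdf15 and Perp were both missed when at least 10 counts were required in every library, where each had an adjusted p of 0.0651.

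All 5 arrest genes lay on the same side of the controls, and none of them was called. Cdkn1a (chromosome 17 from 29227924 to 29237667) encodes p21, the inhibitor of cyclin-dependent kinases through which p53 stops cells in G1. It had 59.3 and 77.6 raw CPM in the controls and 111 and 124 after deletion, and the log2 fold change was 0.81 (standard error 0.21, edgeR quasi-likelihood adjusted p = 0.187). Both deleted libraries were above both controls, but the difference did not pass the threshold. Btg2, an antiproliferative gene that recruits the deadenylase complex to messenger RNAs, had 61.7 and 60.6 raw CPM in the controls and 129 and 144 after deletion. The log2 fold change of Btg2 was 1.18 (standard error 0.19, edgeR quasi-likelihood adjusted p = 0.0692), the nearest to the threshold of any member not called. Without either of the deleted libraries in turn Btg2 was called, and so it was by edgeR's exact test and by DESeq2.

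The remaining arrest genes are also known as rapidly induced stress genes. Plk2 and Plk3 encode polo-like kinases of the stress response. Plk2 had 7.78 and 9.17 raw CPM in the controls and 29.6 and 20.8 after deletion, and a log2 fold change of 1.62 (standard error 0.31, or 1.22 without deleted replicate 1). For Plk3 the values were 16.2 and 18.8 against 43.9 and 31.8 raw CPM, and the log2 fold change was 1.16 (standard error 0.28, or 0.78 without deleted replicate 1). Both kinases were highest in deleted replicate 1, but replicate 2 was also clear of the controls. Gadd45a, a stress sensor that blocks the G2/M transition, had 27.8 and 31.5 raw CPM in the controls and 56.8 and 51.7 after deletion. None of these 3 genes passed the edgeR quasi-likelihood test (adjusted p of 0.0982, 0.154 and 0.157), and each was called by edgeR's exact test and by DESeq2. Exons of Plk3 and Gadd45a overlap those of Tctex1d4 and E230016M11Rik on the opposite strand, which had at most 5.04 and 3.41 raw CPM in any library. Genes of the same rapid response that are not members lay above the controls too. Of 14 listed immediate early genes, 11 lay above both controls in both deleted libraries, where 21.4% of all genes tested did. Called were 2 of them, Jun (log2 fold change 1.60, edgeR quasi-likelihood adjusted p = 0.0367) and Fosb (1.58, adjusted p = 0.0367). Both calls end with DESeq2's size factors (edgeR quasi-likelihood adjusted p = 0.0503 for each), with at least 10 counts in every library (0.0651 for each) and with the replicate block (0.0723 and 0.0631). The part of that response in the arrest genes was not tested.

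The 12 apoptosis genes act at the mitochondrion, at death receptors or further downstream. Bbc3 and Pmaip1 encode PUMA and NOXA, BH3-only proteins that neutralise the BCL2 family guards of the mitochondrion. Bbc3 had 6.64 and 7.01 raw CPM in the controls and 18.8 and 12 after deletion (log2 fold change 1.22, standard error 0.36, or 0.73 without deleted replicate 1). Pmaip1 had 39.7 and 46.0 raw CPM in the controls and 73.2 and 70.0 after deletion (log2 fold change 0.77, standard error 0.21). For both genes the groups did not overlap, and neither passed the edgeR quasi-likelihood test (adjusted p of 0.222 and 0.206). The executors further down had overlapping groups. Bax, the pore-forming protein, had 101 and 62.9 raw CPM in the controls and 98.6 and 73.6 after deletion, so the deleted libraries lay within the control range. Apaf1, the scaffold of the apoptosome, had 229 and 248 against 193 and 233, again with overlap between the groups. Scaled by the TMM factors, however, both deleted libraries of Apaf1 lay below both controls.

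Of the death receptor genes, Fas had 12.9 and 11.6 raw CPM in the controls and 22.0 and 23.1 after deletion (log2 fold change 0.91, standard error 0.25, edgeR quasi-likelihood adjusted p = 0.203). Eda2r, the X-linked receptor for ectodysplasin A2, had 3.69 and 1.22 raw CPM in the controls and 7.43 and 8.56 after deletion (log2 fold change 1.72, standard error 0.54). The controls of Eda2r differed by more than the deleted libraries did, and its log2 fold change ranged from 1.12 to 2.73 with any 1 library left out. The deleted library with high Xist was not the higher of the pair. Tnfrsf10b, the receptor for TRAIL, had 8.05 and 5.86 against 6.71 and 8.45 and overlapped between the groups, but 44.1% of the 31-base stretches of its exons are also found at other places in the genome, which makes its counts uncertain.

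Trp53inp1, a nuclear protein that raises p53 activity and promotes autophagy, had 105 and 142 raw CPM in the controls and 207 and 220 after deletion (log2 fold change 0.82, standard error 0.22, edgeR quasi-likelihood adjusted p = 0.200). It carries the site shown above at -1308. Zmat3, an RNA-binding splicing regulator, went in opposite directions in the deleted libraries, with 31.9 and 13 raw CPM in the controls and 15.6 and 42.0 after deletion. The groups of Zmat3, which carries the site at 1337, thus overlapped. Aen, a nuclease of apoptotic cells, and Ei24, a membrane protein of the endoplasmic reticulum, lay below the controls in both deleted libraries, by small margins. Scaled by the TMM factors, the groups of both genes overlapped. Aen had 49.7 and 35.9 against 35.7 and 31.2 raw CPM, and 20.1% of its 31-base stretches occur elsewhere in the genome. For Ei24 the values were 56.9 and 48.6 against 47.3 and 44.6.

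Trp53 RNA showed no clear difference. Trp53 had 128 and 78.2 raw CPM in the controls and 93.1 and 80.4 after deletion, and its log2 fold change was -0.21 (standard error 0.29). The groups overlapped, and 12% of its 31-base stretches occur elsewhere in the genome. Of the inhibitors in the feedback loop, Mdm2, the ubiquitin ligase for p53 (chromosome 10 from 117125944 to 117147814), was the only member whose groups did not overlap. Mdm2 had 110 and 111 raw CPM in the controls and 155 and 162 after deletion. This was a small difference with a narrow spread (log2 fold change 0.55, standard error 0.20, edgeR quasi-likelihood adjusted p = 0.309), and it stayed between 0.47 and 0.64 with any 1 library left out. Mdm4, a partner of MDM2 that masks the activation domain of p53, had 217 and 267 raw CPM in the controls and 151 and 290 after deletion, so that the deleted libraries enclosed the controls. Ppm1d, the phosphatase WIP1 that switches the damage response off, had 38.3 and 33.9 against 40.1 and 32.5. Ccng1, a cyclin that steers a phosphatase to MDM2, had 313 and 217 against 351 and 309, and its groups overlapped by a narrow margin. For Mdm4, 29.1% of the 31-base stretches of the exons occur elsewhere in the genome.

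None of the 5 repair genes lay above both controls, where 21.4% of all genes tested did, so that 0 of 5 is little different from the share over all genes. Likewise 0 were called by edgeR's quasi-likelihood test, its exact test or DESeq2 (0.370%, 3.25% and 2.85% of all genes were called higher), with 0 at an unadjusted p under 0.05. Xpc, which recognises helix-distorting lesions in nucleotide excision repair, had 106 and 109 raw CPM in the controls and 82.4 and 73.9 after deletion, lower in both (log2 fold change -0.43, standard error 0.21). Polk, a translesion polymerase, had 35.4 and 36.8 against 20.0 and 31 raw CPM, also lower in both (log2 fold change -0.50, standard error 0.24, or -0.30 without deleted replicate 1). Neither passed the edgeR quasi-likelihood test (adjusted p of 0.486 and 0.466). Ddb2, the sensor of ultraviolet damage, had 13.5 and 16.6 raw CPM in the controls and 9.52 and 16.8 after deletion, with the difference on the side of deleted replicate 1. Ercc5, the endonuclease that cuts 3′ of a lesion, had 24.7 and 18.3 against 17.8 and 28.4. Rrm2b, the p53-inducible subunit of ribonucleotide reductase, had 18.6 and 16.5 against 16.6 and 18.2, a log2 fold change of 0.01. The last 3 genes overlapped between the groups. Exons of Ddb2 overlap those of Acp2 on the opposite strand. Acp2 was the more abundant of the pair in every library (29.0 to 39.5 raw CPM), which makes the counts of Ddb2 less certain. Of the 31-base stretches of Rrm2b, 29.0% occur elsewhere in the genome.

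**Figure D2:**
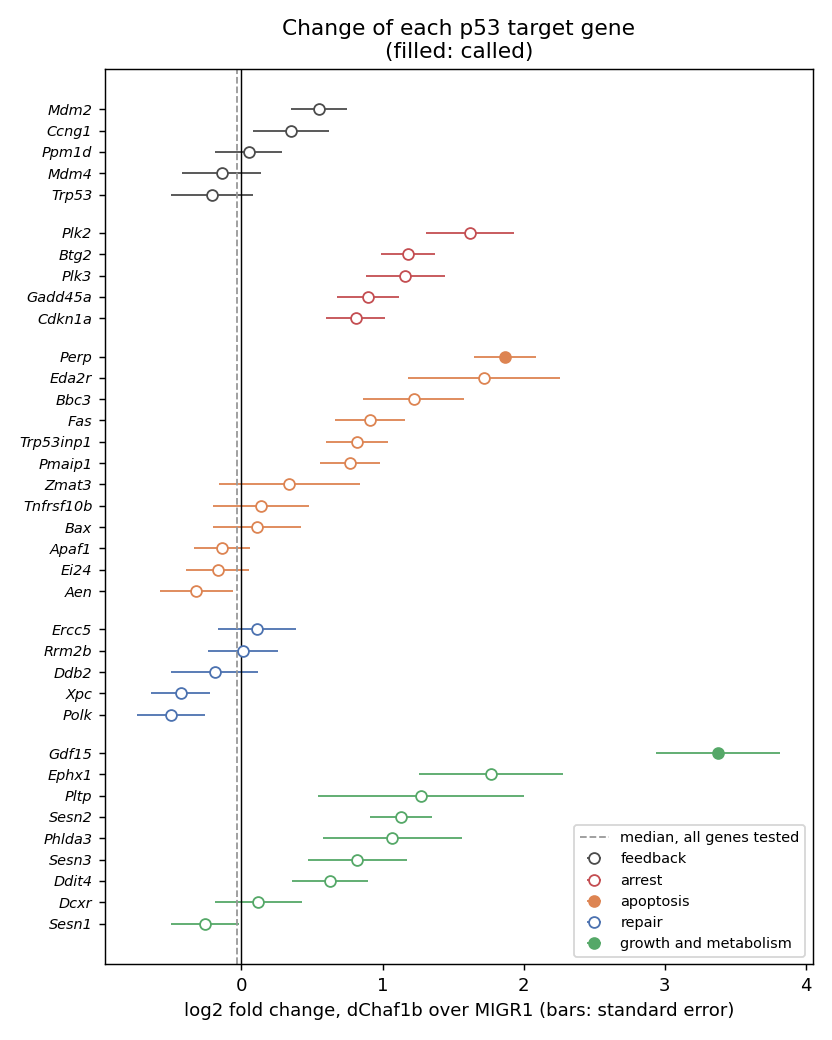
Log2 fold change of each p53 target gene in Chaf1b-deleted over control HSPCs, with its standard error as bars, by function. Filled points are the 2 genes called (Gdf15 at 3.38 and Perp at 1.87), and the dashed line is the median of all genes tested, -0.03.

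The 3 sestrins, which restrain mTORC1 and limit oxidative stress, differed from one another. Sesn2 (chromosome 4 from 132047947 to 132066416) had 30.3 and 26.8 raw CPM in the controls and 63.5 and 58.5 after deletion (log2 fold change 1.13, standard error 0.22, edgeR quasi-likelihood adjusted p = 0.101). Sesn3 had 5.06 and 4.41 against 6.71 and 9.96 (log2 fold change 0.82, standard error 0.35). Sesn1 had 30.0 and 32.1 against 20.3 and 31.2, so its groups overlapped. The groups of Sesn2 and Sesn3 did not overlap, while of the deleted libraries of Sesn1 the one was below both controls and the other between them. Scaled by the TMM factors, both deleted libraries of Sesn1 lay below both controls. Ddit4, another inhibitor of mTORC1, had 33.6 and 21.2 raw CPM in the controls and 37.7 and 46.2 after deletion (log2 fold change 0.63, standard error 0.27). Sesn2, Ddit4 and Gdf15 are also known targets of ATF4, the factor of the integrated stress response. Of 14 other listed genes of that response, 7 lay above both controls and 1 below both (21.4% and 22.9% of all genes tested). By edgeR's quasi-likelihood test 0 of the 14 were called. At an unadjusted p under 0.05, 3 of these were higher and 1 lower (9.15% and 3.10% of all genes tested). Their median log2 fold change was 0.37, and the part of ATF4 in the members was not tested.

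The other members of this group were sparse in HSPCs. Phlda3, which blocks AKT at the membrane, had 5.94 and 2.36 raw CPM in the controls and 9.01 and 8.07 after deletion (log2 fold change 1.07, standard error 0.49). Ephx1, microsomal epoxide hydrolase, had 0.880 and 2.05 against 4.5 and 5.41 (log2 fold change 1.77, standard error 0.51, edgeR quasi-likelihood adjusted p = 0.216). Pltp, phospholipid transfer protein, had 6 and 36 counts in the controls and 46 and 38 after deletion. All 3 lay above the controls, but with control libraries that differed from each other by more than 2-fold. With any 1 library left out, the log2 fold change ranged from 0.54 to 1.89 for Phlda3, from 1.30 to 2.49 for Ephx1 and from 0.53 to 2.91 for Pltp, with MIGR1 replicates 1 and 2 at the ends of each range. Exons of Pltp overlap those of the far more abundant Ctsa on the opposite strand (115 to 169 raw CPM), so its few counts are the least certain of the list. Dcxr, a carbonyl reductase, had 8.18 and 9.41 against 9.52 and 9.15 raw CPM, and its groups overlapped.

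Levels can be compared between genes only per length, here as raw CPM per kilobase of annotated exon, averaged over the 2 libraries of a group. In control HSPCs the most abundant members were Ccng1 (75.5), Mdm4 (69.0) and Bax (61.2), and the scarcest were Pltp (0.328), Eda2r (0.417), Gdf15 (0.661) and Ephx1 (0.730). Trp53 stood at 25.4 and Mdm2 at 21.8. After deletion the 3 most abundant were unchanged in identity (Ccng1 94.0, Bax 64.3, Mdm4 62.8), and Cdkn1a followed at 53 (from 30.8) and Btg2 at 49.6 (from 22.3). The 4 scarcest control genes all lay above the controls after deletion, up to 6.78 for Gdf15 and 2.47 for Ephx1, which is still far below the common members. In the controls the libraries of Ccng1, Mdm4 and Bax overlapped in this order, and after deletion those of Mdm4 and Bax did.

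In each deleted library taken alone, the members lay above the controls on balance. The median log2 ratio of the members to the control mean (0.1 raw CPM added to each) was 0.48 in deleted replicate 1 and 0.73 in replicate 2, where all genes tested gave -0.17 and 0.06, and the controls differed from each other by a median of -0.03 over the members. More than 2-fold above the control mean were 11 members in replicate 1 (7.01% of all genes tested) and 9 in replicate 2 (9.61%). Deleted replicate 1 was the higher of the pair for 16 of the 36 members. The interferon-stimulated genes were far apart between the libraries, with median log2 ratios of 3.40 in replicate 1 and 0.19 in replicate 2. The immediate early genes had medians of 1.40 and 0.98. Without deleted replicate 1 the median log2 fold change of the members was 0.65 and 3 were called (Btg2, Perp and Gdf15). Without replicate 2 it was 0.62 and 6 were called (Btg2, Plk2, Plk3, Perp, Sesn2 and Gdf15).

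**Figure D3:**
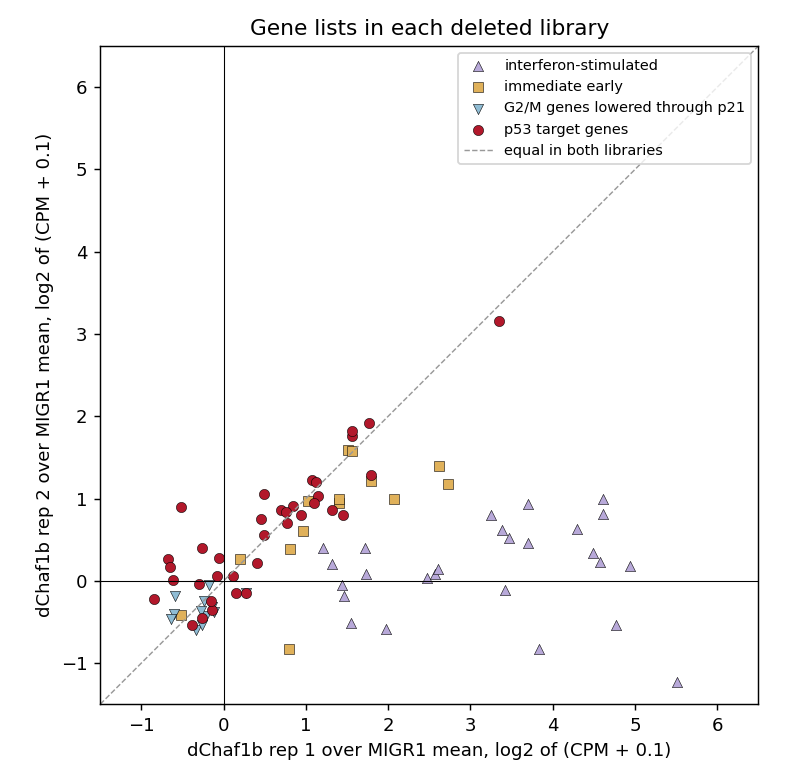
Log2 ratio to the control mean in Chaf1b-deleted replicate 1 (horizontal) and replicate 2 (vertical), with 0.1 added to each raw CPM, for the p53 target genes (circles), immediate early genes (squares), interferon-stimulated genes (upward triangles) and G2/M genes that p53 lowers through p21 (downward triangles). The p53 target genes scatter about the dashed line of equal values, while the 26 interferon-stimulated genes lie to the right of it.

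The rest of the pathway was examined through lists that do not overlap the members. Of 32 further targets, 28 were tested and 0 were called by edgeR's quasi-likelihood test. At an unadjusted p under 0.05, 7 were higher and 2 lower (9.15% and 3.10% of all genes tested). Above both controls lay 11 and below both 5 (21.4% and 22.9% of all genes tested), and the median log2 fold change was 0.11. Ak1, an adenylate kinase, had 5.15 and 4.01 raw CPM in the controls and 16.7 and 12.5 after deletion (log2 fold change 1.72, edgeR quasi-likelihood adjusted p = 0.114), and Lif, the cytokine, had 10.6 and 10.9 against 19.2 and 20.9 (0.92, adjusted p = 0.204). Trp53i11 and Cpt1c also lay above both controls (log2 fold changes of 1.13 and 1.54). By the exact test 1 of the 28 was called higher (3.25% of all genes tested), and by DESeq2 2 were (2.85%).

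Upstream of p53, 13 of 16 listed regulators were tested and 0 were called by edgeR's quasi-likelihood test, its exact test or DESeq2. At an unadjusted p under 0.05, 1 was higher and 3 were lower (9.15% and 3.10% of all genes tested). Of the 13, 5 lay below both controls in both deleted libraries and 1 above both, where 22.9% and 21.4% of all genes tested did. Of the 5, 4 were kinases that pass damage signals to p53, the fourth being Chek1 (log2 fold change -0.22). Atm, another such kinase, overlapped between the groups (122 and 88.4 raw CPM in the controls, 49.8 and 92.6 after deletion). Chek2, the checkpoint kinase, had 44.3 and 40.8 raw CPM in the controls and 24.6 and 29.8 after deletion (log2 fold change -0.63). Atr, the sensor of stalled forks, had 92.1 and 104 against 44.1 and 78.3 (-0.68), and Prkdc, the DNA-dependent protein kinase, had 115 and 112 against 39.1 and 92.7 (-0.80). In both of these genes deleted replicate 1 was far the lower library. Without it the log2 fold change was -0.41 for Atr and -0.37 for Prkdc, and without deleted replicate 2 it was -1.02 and -1.40, where Prkdc was called lower. Usp7, the deubiquitinase of MDM2 and p53, lay below the controls too (-0.34), and Rchy1, a ubiquitin ligase for p53, lay above (0.58). Cdkn2a, the gene of ARF, was too low to be tested.

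Genes of G2 and mitosis that are lowered when p21 acts through the DREAM complex are a readout in the other direction. Of 12 such genes, 11 lay below both controls in both deleted libraries, where 22.9% of all genes tested did so, and 0 were called by edgeR's quasi-likelihood test, its exact test or DESeq2. Scaled by the TMM factors, 9 of the 12 did so (21.4% of all genes tested). The differences were small, with a median log2 fold change of -0.29 and 1 gene lower at an unadjusted p under 0.05. That gene was Bub1b, of the spindle checkpoint, with 208 and 221 raw CPM in the controls and 141 and 163 after deletion (log2 fold change -0.48, edgeR quasi-likelihood adjusted p = 0.381). Top2a, topoisomerase II, had 1200 and 1360 raw CPM against 821 and 930 (-0.52), and Cdk1 had 184 and 195 against 150 and 125 (-0.43). Foxm1 and Aurka lay below both controls as well (-0.36 for each).

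How many members were called depended on the test. By edgeR's exact test 7 of the 36 were called higher (3.25% of all genes tested) and by DESeq2 8 were (2.85%), with 0 lower by either. The 7 were Gdf15, Perp, Btg2, Plk2, Plk3, Gadd45a and Sesn2, and DESeq2 added Eda2r. Perp and Gdf15 are in both of these sets. Without a low-count filter 10 members were called (2.57% of the genes then tested), the 8 of DESeq2 with Bbc3 and Ephx1. Perp was the only member called with DESeq2's size factors (0.164% of all genes tested) and with library size only (0.182%). No member was called when 10 counts were required in every library (0.0211%) or with the replicate number as a block (0.0848%). Each library weighed on the count as well. It was 4 without MIGR1 replicate 1 (1.60%), 3 without MIGR1 replicate 2 (1.92%), 3 without deleted replicate 1 (0.721%) and 6 without deleted replicate 2 (1.89%). No member was called lower in these 4 fits, where 0.241%, 0.139%, 0.0346% and 0.245% of all genes tested were. All 10 members called in any of these ways lay above both controls in both deleted libraries, which is no separate support, since the calls rest on the same libraries.

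**Figure D4:**
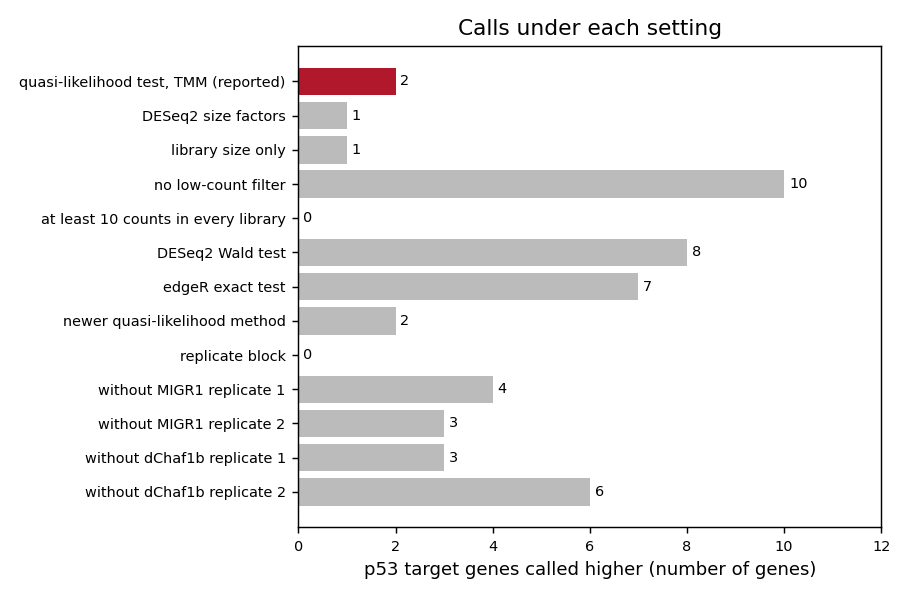
Number of the 36 p53 target genes called higher under each setting, with the reported test in red (2 genes) and the alternatives in grey. The count runs from 0, with at least 10 counts required in every library or with the replicate number as a block, to 10 without a low-count filter, and no gene was called lower.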

How the data were processed

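Total RNA of 4 libraries of HSPCs, 2 for each vector, was sequenced after ribosomal depletion with a strand-specific kit. The deposited files hold raw counts per Ensembl gene identifier, which the authors made with HTSeq-count from STAR alignments to mm9. The annotation release and the strand setting are not given in the sources used here. Of 43629 identifiers, 33068 were named from the NCBIM37 annotation (GENCODE M1), and the other 10561 are not in it, so the counting used another gene set. Coordinates and exon lengths are those of NCBIM37. Lines that name no gene were left out. Of the uniquely aligned reads, 42.3% and 42.1% in the controls and 35.8% and 48.3% in deleted replicates 1 and 2 fell on no counted feature. Between 2.05% and 2.76% were ambiguous.

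Raw CPM means counts per 1000000 counts on genes. Differential expression was computed with edgeR 4.0.16 (R 4.3.3): filterByExpr with a minimum count of 10 (16500 genes), TMM factors of 0.925 to 1.06, and glmQLFit (legacy method) with glmQLFTest, two-sided, without a covariate, with Benjamini-Hochberg adjustment over all genes tested. The common dispersion was 0.0763. The thresholds of a call, 1.5-fold and an adjusted p-value under 0.05, follow the study. Medians and counts over lists carry no test. The members and lists were chosen with earlier results of these data known. All 36 members are named, and of the further targets, regulators, G2/M and immediate early lists the genes called or else up to 5 with the smallest unadjusted p whose groups did not overlap, and called markers. The interferon and ATF4 lists are given as counts and medians. The values of 1 gene that this rule names are not reported here. Markers not called are given mainly as sums. Of them, Kit, Cd34, Myb, Mpo, Retnlg, Mmp8, Ltf, Pdgfra, Cdh5 and Col3a1, and the regulators Chek1 and Atm, were named after their values were seen.

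Wilson intervals (95%) cover counting error only, as reads carry no molecular identifiers. Of the 144 member values, 133 rest on at least 100 counts, where the interval is at most 19.7% to either side. A count of 0 allows 3 counts, or 0.118 to 0.162 raw CPM. p53 sites were searched on both strands of windows of equal length around the most upstream annotated 5′ end. Alternatives were DESeq2's size factors or library size, other filters, DESeq2 1.42.0, edgeR's exact test, its newer quasi-likelihood method, no fold minimum, the replicate number as a block, and each library left out. The tests were tried on simulated counts with known changes. Those changes were larger than that of any member but Gdf15, so the trial does not show how often smaller changes would be called.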

Additional observations from a re-analysis of the deposited data

How the results depend on the processing

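The count of 2 members called higher was unchanged with the newer quasi-likelihood method and without a fold minimum. It was 1 with DESeq2's size factors and 1 with library size only, 10 without a low-count filter, 0 of 35 with at least 10 counts in every library, 8 with DESeq2, 7 with edgeR's exact test and 0 with the replicate block. With each library left out it ranged from 3 to 6, where a lone library is assumed to vary like the other group. No member was called lower under any of these. The cause of the other shifts was not tested. The median log2 fold change of the members was 0.55 to 0.62 under the other alternatives and 0.43 to 0.65 with each library left out. The log2 fold change of Chaf1b ranged from -2.24 to -1.74 in the fits without 1 library, and missed the adjusted threshold with at least 10 counts in every library (-2.00, edgeR adjusted p = 0.0651) and with the block (-1.98, edgeR adjusted p = 0.0592). Of the further targets, 4 were called higher without a filter (2.57% of the genes then tested), 2 by DESeq2 (2.85%) and 1 by the exact test (3.25%). No regulator was called under these alternatives. No G2/M gene was called under any alternative. Rrm2b changed sign with library size only (-0.01). With each library left out, 10 members changed sign, none of them called: Trp53 ranged from -0.54 to 0.19, Mdm4 from -0.54 to 0.18, Ppm1d from -0.23 to 0.30, Bax from -0.24 to 0.50, Tnfrsf10b from -0.09 to 0.39, Zmat3 from -0.38 to 1.13, Ddb2 from -0.52 to 0.09, Rrm2b from -0.09 to 0.10, Ercc5 from -0.13 to 0.34 and Dcxr from -0.02 to 0.25. A full p53 site was found in 3 members within 2 kb (1.2% of all genes searched), in 21 with 1 mismatch (44.5%) and in 2 without bases between the half-sites (0.2%). Same-numbered libraries did not deviate together over genes (correlation of their deviations 0.0133). With only 2 pairs, and deleted replicate 1 set apart by sex and interferon genes, this cannot tell whether same-numbered libraries shared a culture or batch. With the block, Perp had an adjusted p of 0.0631 and Gdf15 of 0.106. Depth limits the 11 of 144 member values that rest on fewer than 100 counts, the lowest of them 6 counts of Pltp in a control library.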

Other observations

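Among the marker lists used to check the cells, a gene was called in each of 2. Flt3, the receptor of early lymphoid and multipotent progenitors, had 4.66 and 5.31 raw CPM in the controls and 19.3 and 22.7 in the deleted libraries, and rose by 2.09 on the log2 scale (standard error 0.28, edgeR quasi-likelihood adjusted p = 0.0383). The Flt3 call ends with DESeq2's size factors (edgeR adjusted p = 0.0503), library size only (0.0585), at least 10 counts in every library (0.0651) and the replicate block (0.0960). Cxcr2, the chemokine receptor of mature neutrophils, had 126 and 105 against 297 and 357 raw CPM, and rose by 1.52 on the log2 scale (edgeR quasi-likelihood adjusted p = 0.0429). The Cxcr2 call ends under the same alternatives (edgeR adjusted p = 0.0554, 0.0583, 0.0651 and 0.0927) and without MIGR1 replicate 2 (0.0917). The summed level of the 6 megakaryocyte markers was 95.5 and 93.7 raw CPM with the empty vector and 141 and 242 with Cre. Of the 6, 5 lay above both controls, where 21.4% of all genes tested did. The 8 monocyte or macrophage markers summed to 254 and 685 raw CPM with the empty vector and 447 and 355 with Cre, so the controls differed from each other by more than the deleted libraries did. The remaining lists, of mast cell, erythroid and T or NK cell markers, summed to between 26.1 and 1070 raw CPM in the libraries.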
